A study of Mus musculus with 4 samples.

Results

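Chemokines, interleukins and the receptors for both were described in the colon of germ-free mice. Genes were taken by symbol (Ccl, Ccr, Cxcl, Cxcr or Il followed by a digit), which matched 137 of the 24016 genes in the deposited table. Of these, 75 had a mean of at least 0.5 CPM (counts scaled to library size) over the 4 libraries and are the genes described here, among 15286 genes of the whole table at that level. They comprise 19 chemokine ligands, 11 chemokine receptors, 13 genes of the IL-1 family and 12 of the common gamma chain, IL-3, IL-5 and IL-13 families. The rest are 6 of the IL-6 and IL-12 family, 5 of the IL-10 and IL-20 family, 6 of the IL-17 family, and Il34, Il16 and Il4i1. Membership rests on the symbol, and genes such as Il4i1 and Il18bp are in the set without being a chemokine, an interleukin or a receptor.

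Each library came from the colon of C57BL/6 mice bought germ-free and aged 7 weeks, with 1 library per condition. The untreated library had no gavage. The other 3 came from mice killed 4 h after an oral gavage with phosphate-buffered saline (PBS, the vehicle), with the gut bacterium Escherichia coli, or with the probiotic Lactobacillus rhamnosus GG (abbreviated LGG), both bacteria at a labelled dose of 2 x 10E9 cfu/mL. The labels give 4 mice for each gavaged group and a 4 cm colon piece, and do not say whether a library holds 1 mouse or a pool, how many mice were untreated, or which E. coli strain was used. With 1 library per condition no difference has a replicate check and no p-value is given, so every interval covers counting error only.

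Chemokines are small secreted proteins that direct the movement of leukocytes through G-protein-coupled receptors, and interleukins are cytokines that act through multi-chain receptors, many of them signalling through JAK kinases and STAT factors or, for the IL-1 and IL-17 families, through adaptor proteins that lead to NF-kappaB. In the gut, epithelial cells carry receptors for IL-22, IL-17, IL-10-related cytokines and IL-13, make IL-18 and some chemokines themselves, and receive most other cytokines from immune cells below them. In a bulk sample, fewer cells of a type and less RNA per cell cannot be told apart.

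Library totals were 27220697 counts (untreated), 16289580 (PBS), 29368008 (E. coli) and 29899371 (LGG), so that 0 counts left room for up to 0.105, 0.187, 0.103 and 0.102 CPM in that order. Colon epithelium markers such as Muc2 were abundant in every library (7 genes, summing to 14038 to 16716 CPM), as the labelled tissue should hold them. Several marker lists moved with the libraries. The 8 genes of B cells and follicles summed to 25.9 CPM in the untreated library and to 46.4 (PBS), 49.8 (E. coli) and 40.6 (LGG) in the gavaged ones, with no gene at 0. The 6 genes of pancreatic acinar cells summed to 1.26, 14.2, 54.0 and 28.6 CPM in the same order. Against untreated, 4 of 5 mesothelial genes (Msln, Upk3b, Wt1 and Lrrn4) and all 5 adipocyte genes were lower in E. coli past the 2-fold size rule described below. In LGG 2 (Wt1 and Lrrn4) and 0 were, and in PBS 1 (Wt1) and 0 were. All 5 adipocyte genes were also below untreated in PBS, short of 2-fold. Of all genes, 1.99% (E. coli), 1.0% (LGG) and 1.1% (PBS) were lower past the rule. The 8 T cell genes in the table summed to 13.6 to 15.2 CPM and the 8 macrophage genes to 144 to 154 CPM, while the 5 neutrophil genes together held 0.0344 to 0.105 CPM, at or near 0. The part of these differences in the results below was not tested.

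The genes of this set were mostly of low abundance. Their median mean level was 3.96 CPM, against 22.9 CPM for all genes, and 39 of 75 (52.0%) lay under 5 CPM, against 22.6% of all genes. Summed over the 75 genes the level was 1418 CPM in the untreated library, 1497 after PBS, 1524 after E. coli and 1521 after LGG. Chemokine ligands held 33.3% of that sum and chemokine receptors 1.51%. Many of the genes had counts that leave wide intervals: 25 of the 75 had fewer than 30 counts in some library, the lowest being 7.

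On the RPKM scale (CPM per kilobase of transcript, which allows levels of different genes to be compared), Ccl6, a chemokine of the CC class made by myeloid and other cells in mice, was the highest, at 180 ± 9.08 RPKM (SD over the 4 libraries, n = 4). It was followed by the receptor chains Il17rc, which binds IL-17 together with Il17ra (56.2 ± 2.998), and Il10rb, shared by the IL-10 and IL-22 receptors (47.2 ± 2.76). Next came the cytokine Il18 (38.4 ± 6.91), the IL-13 receptor chain Il13ra1 (35.0 ± 2.23), the homeostatic chemokine Cxcl12 (29.8 ± 1.79) and the mucosal chemokine Ccl28 (27.2 ± 4.70). Il6st, the signal-transducing chain of the IL-6 family (21.2 ± 2.06), Il22ra1, the IL-22 receptor chain found on epithelium (19.5 ± 0.976), Il1rn, the secreted IL-1 receptor antagonist (19.3 ± 3.82), and Il11ra1 (18.5 ± 1.498) completed the genes above 18 RPKM. Among these neighbours in the order, Ccl6 and Il17rc, Il17rc and Il10rb, and Il11ra1 and the next gene, Il15, had ranges over the libraries that did not overlap, and all other neighbours overlapped. Il11ra1 has near-identical copies and Ccl6 lies on the strand opposite the RNA gene E230016K23Rik (0.21 to 0.65 CPM), so their counts carry that uncertainty.

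**Figure D1:**
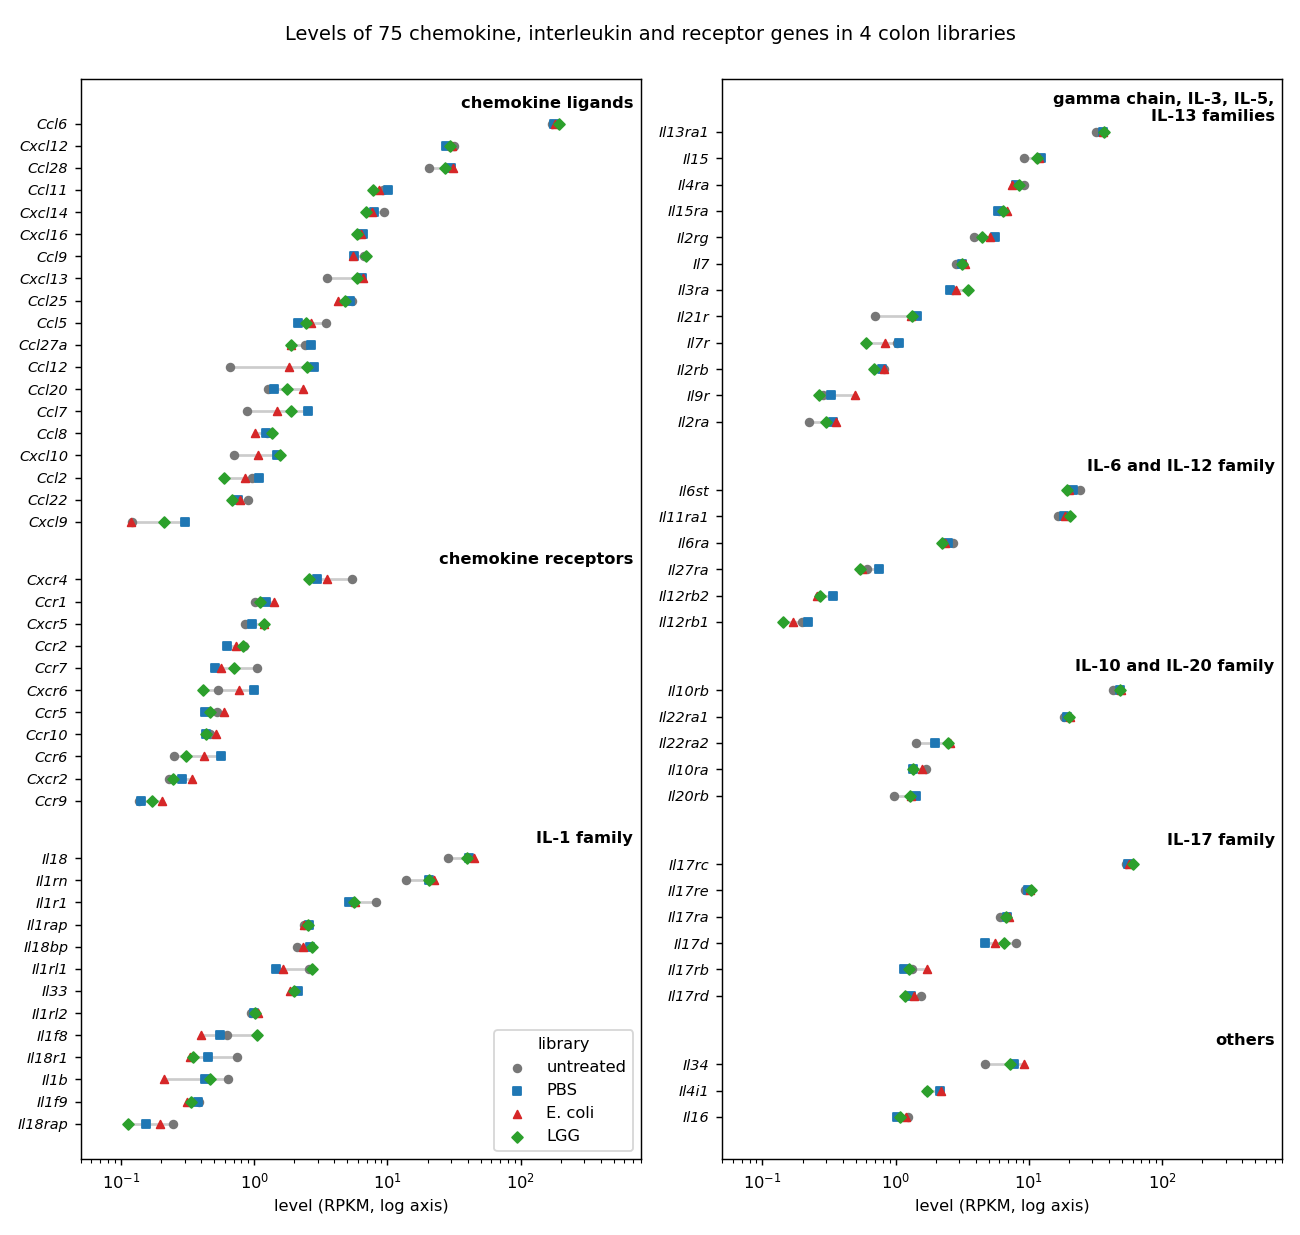
Level of each of the 75 genes in each library (RPKM, log axis), grouped by family and ordered by mean within it. Points are single libraries (grey circle untreated, blue square PBS, red triangle E. coli, green diamond LGG). Abundant genes such as Ccl6 and Il17rc have points close together, whereas Ccl12, Ccl7, Il21r and Il34 have the untreated library set apart to the left.

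In the IL-6, IL-10 and IL-17 families the receptors were measured and the cytokines mostly were not. None of the 7 IL-6 and IL-12 family cytokines, none of the 5 IL-10 and IL-20 family cytokines and 1 of the 6 IL-17 family cytokines (Il17d) reached 0.5 CPM. Of their receptors, 6 of 9, 5 of 6 and 5 of 5 did. Il6 had 1, 0.5, 1 and 0 deposited counts in the untreated, PBS, E. coli and LGG libraries, and Il17a and Il22 had 0 in all 4. By contrast the IL-22 receptor chain Il22ra1 was at 106, 112, 118 and 117 CPM, Il17rc at 125, 130, 132 and 142 CPM and Il10rb at 79.4, 88.5, 90.4 and 89.3 CPM in that order. These receptor genes were therefore abundant in libraries where at most the floor of 3 counts was allowed for Il17a and Il22. Il10, an anti-inflammatory cytokine, had 1, 0, 5.5 and 3.5 counts, and Il17f, singled out after its values were seen, had 1, 0.5, 3.5 and 5.5. In both, the bacterial libraries held the larger counts, but these lie within a few counts of the floor and no difference was detectable at this depth. Il23a, which drives IL-17-producing cells, had 3.5, 3, 6 and 4 counts.

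The neutrophil-attracting chemokines Cxcl1 and Cxcl2, which respond rapidly to microbial products in many tissues, were also below the threshold. Cxcl1 had 6.5, 6, 11.5 and 6.5 counts and Cxcl2 had 0.5, 1, 0.5 and 1. Neither bacterial library stood above the others beyond counting error. In all, 62 of the 137 genes were below the threshold, 12 of them at 0 in every library. The genes just inside it were Il1f8 (0.509 CPM by library totals), Il12rb1 (0.513) and Cxcl9 (0.541), and just outside were Cxcr3 (0.495), Cxcl5 (0.489) and Il11 (0.487). Genes with several near-identical copies in the table (Ccl21a, Ccl21b, Ccl21c, Ccl27b and Il11ra2) were below it, and Ccl27a, which resembles Ccl27b, was inside.

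The comparisons of 2 libraries were read with a size rule: at least 2-fold apart, with the 95% counting interval of the log2 ratio excluding 0. Across the 6 pairs of libraries, 12 of the 75 genes were past it at least in 1 pair. These were the ligands Ccl12, Ccl7, Cxcl10 and Cxcl9, the chemokine receptors Ccr7, Cxcr4 and Cxcr6, Il21r, and, in the IL-1 family, Il18r1, Il18rap, Il1b and Il1f8. The share of all genes past the rule in any pair was not counted, so this number has no background beside it. Shares of all genes are given below for each pair and direction. The set varied more over the libraries than the table as a whole: the highest library was a median of 1.38 times the lowest, against 1.20 for all genes, and 62 of 75 (82.7%) stayed within 2-fold, against 14519 of all 15286 genes, or 95%. Low counts widen such ranges, and the genes of this set were less abundant than the rest.

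**Figure D2:**
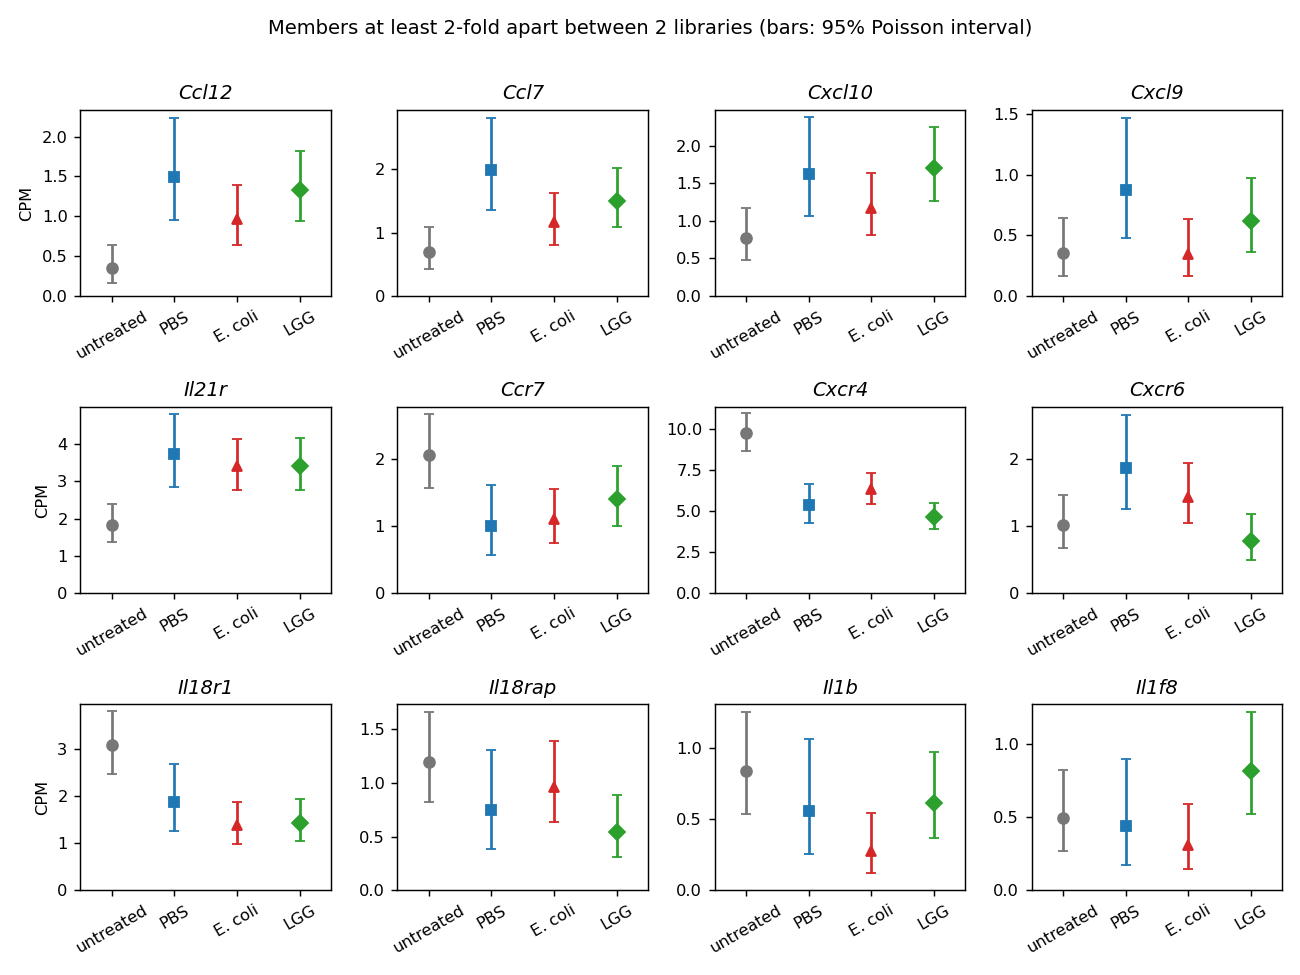
Level (CPM, linear axis from 0) of the 12 genes past the size rule in at least 1 pair, in each library, with 95% Poisson intervals as bars. Ccl12, Ccl7, Cxcl10 and Il21r are lowest in the untreated library, and Cxcr4, Ccr7, Il18r1, Il18rap and Il1b are highest there.

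PBS against untreated sets vehicle gavage beside no gavage, without bacteria in either library. The genes with larger differences were chemokine ligands: Ccl12, Ccl7, Cxcl9 and Cxcl10 were each more than 2-fold higher in the PBS library, as was Il21r, the receptor for IL-21. These 5 of 75 genes (6.67%) compare with 0.798% of all genes past the rule in this direction. On the lower side was Ccr7 alone (1.33%), against 1.1% of all genes. The median log2 ratio of the 75 genes was 0.0959, with 45 positive, and that of all genes -0.0018. Scaling by library totals instead of TMM (the trimmed mean of M-values) moved the median of all genes to -0.0906 and left 2 genes of the set higher and 1 lower.

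Ccl12 (NM_011331, chromosome 11, 81915347 to 81916901 in mm9), a mouse chemokine that attracts monocytes through CCR2, was at 0.351 CPM in the untreated library, 1.496 after PBS, 0.963 after E. coli and 1.33 after LGG, from 10, 24, 27.5 and 39 deposited counts. The untreated library was the lowest and its Poisson interval overlapped that of the E. coli library but not those of the other 2. The log2 ratio to untreated was 2.03 for PBS (95% counting interval 0.98 to 3.32), 1.41 for E. coli (0.37 to 2.66) and 1.87 for LGG (0.90 to 3.09), the 3 comparisons sharing the untreated library. Ccl12 was the only gene of the set past the size rule against untreated in all 3.

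Ccl7 (NM_013654, chromosome 11, 81859214 to 81861025), which attracts monocytes and lies near Ccl12, was at 0.702, 2.00, 1.17 and 1.503 CPM in the same order of libraries. Its log2 ratio to untreated was 1.48 for PBS (0.66 to 2.39) and 1.08 for LGG (0.31 to 1.94), and 0.72 for E. coli with an interval that included 0 (-0.10 to 1.61). Other genes of this chemokine cluster had other orders. Ccl2, a major monocyte attractant, was at 0.772, 0.873, 0.688 and 0.478 CPM and Ccl11, the eosinophil attractant eotaxin, at 9.96, 10.8, 9.22 and 8.33 CPM. Ccl8, chosen after its values were seen, was at 0.631, 0.623, 0.516 and 0.683 CPM.

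Cxcl9 and Cxcl10 both act on CXCR3 on T cells and are classical interferon-induced genes. Cxcl10 (NM_021274, chromosome 5, 92775665 to 92777915) was at 0.772, 1.62, 1.17 and 1.71 CPM, with a log2 ratio to untreated of 1.05 for PBS (0.19 to 1.96), 0.59 for E. coli (-0.22 to 1.44) and 1.13 for LGG (0.40 to 1.94). Cxcl9 (NM_008599, chromosome 5, 92750357 to 92757105) was at 0.351, 0.873, 0.344 and 0.615 CPM from 9.5, 14.5, 10 and 17.5 counts, and its ratio for PBS was 1.27 (0.04 to 2.65). For E. coli the ratio of Cxcl9 to untreated was -0.03, with a wide interval (-1.45 to 1.39). Cxcl10 lies within Art3, transcribed from the opposite strand at 15.5 to 19.0 CPM, and without strand information reads of the pair cannot be told apart.

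Ccl12, Ccl7, Cxcl9 and Cxcl10 were each higher after PBS than without gavage. Unlike the others, Cxcl9 was not lowest in the untreated library (0.351 CPM, against 0.344 after E. coli). For the ligands among them with a RefSeq entry (build GRCm38.p6), the 250 bases before the transcription start are shown, 5′ to 3′ on the coding strand. Entries were found for 56 of the 75 genes. Capitals mark matches, on either strand, to GAAANNGAA (an interferon response element) or to the kappaB consensus, and TTCNNNGAA (a gamma-activated site, matched by none of them) was searched as well. Cxcl9 lies at chr5:92328080-92328329, minus strand, Cxcl10 at chr5:92348890-92349139, minus strand, and Ccl12 at chr11:82101595-82101844, plus strand.
Cxcl9: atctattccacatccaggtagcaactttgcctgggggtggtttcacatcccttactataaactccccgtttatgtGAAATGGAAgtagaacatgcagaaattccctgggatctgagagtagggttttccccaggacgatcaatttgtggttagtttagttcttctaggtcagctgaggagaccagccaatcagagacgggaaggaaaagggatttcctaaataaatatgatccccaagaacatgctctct
Cxcl10: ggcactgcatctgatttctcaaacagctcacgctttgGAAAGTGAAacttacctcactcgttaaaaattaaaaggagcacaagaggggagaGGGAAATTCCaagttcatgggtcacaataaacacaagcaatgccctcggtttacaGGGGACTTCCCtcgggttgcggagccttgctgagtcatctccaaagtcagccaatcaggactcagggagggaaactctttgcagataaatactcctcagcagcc
Ccl12: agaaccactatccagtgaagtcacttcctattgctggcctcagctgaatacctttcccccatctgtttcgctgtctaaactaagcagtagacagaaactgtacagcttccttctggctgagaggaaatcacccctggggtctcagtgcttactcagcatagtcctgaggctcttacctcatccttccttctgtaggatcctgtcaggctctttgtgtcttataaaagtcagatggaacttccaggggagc
GAAANNGAA was present in the Cxcl9 window from 175 to 167 and in the Cxcl10 window from 213 to 205 bases before the start. Cxcl10 also held the kappaB consensus from 159 to 150 and, in overlapping matches, from 104 to 95 and from 103 to 94, the last read on both strands. Ccl12 held none of the 3. Over 32851 RefSeq promoters of the same length, 7.129% held GAAANNGAA, 7.251% the kappaB consensus and 7.02% TTCNNNGAA. Counted by gene, GAAANNGAA was present for 5 of the 56 genes (8.93%, against 8.18% of all genes), among them Cxcl9, Cxcl10 and Cxcl14, the kappaB consensus for 9 (16.1%, against 8.23%) and TTCNNNGAA for 6 (10.7%, against 8.13%). A match of letters describes the sequence and is not a measured site.

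None of the other ligands was past the rule in any pair. Ccl28, an epithelial chemokine that draws antibody-secreting cells to mucosae, was at 76.7, 112, 116 and 102 CPM, with a log2 ratio to untreated of 0.55 for PBS (0.46 to 0.64), 0.59 for E. coli (0.51 to 0.67) and 0.41 for LGG (0.33 to 0.49). Beside it, the plasma cell genes Derl3 (0.421, 1.496, 1.41 and 1.30 CPM) and Mzb1 (0.631, 1.62, 2.10 and 1.09 CPM) were also higher in the gavaged libraries, with PBS at least 2-fold above untreated and intervals excluding 0. For Mzb1 the interval in LGG against untreated included 0 (-0.09 to 1.71). Xbp1, of the same list, was also higher (164, 180, 171 and 195 CPM). Sdc1 (238, 232, 228 and 260 CPM) and Tnfrsf17 (0.140, 0.499, 0.241 and 0.102 CPM) were not higher in every gavaged library. The sum of the 5 plasma cell genes (403, 415, 404 and 457 CPM) was mostly Sdc1 and Xbp1. The part of these genes in the Ccl28 difference was not tested. Cxcl13, which attracts B cells into follicles, was at 4.07, 7.42, 7.63 and 6.83 CPM, so that all 3 gavaged libraries were above the untreated one, as were the summed B cell and follicle genes given above. Ccl20, an epithelial ligand of CCR6 that responds to microbial products, was at 1.02, 1.12, 1.86 and 1.40 CPM. Its ratio in E. coli against untreated was 0.86 (0.19 to 1.57), and its interval in E. coli against PBS included 0 (0.72, -0.07 to 1.58). Cxcl12 (51.6 to 59.6 CPM), Cxcl16 (14.5 to 16.1) and Ccl25, the ligand of the gut-homing receptor CCR9 (4.44 to 5.68), stayed within 1.5-fold across the libraries.

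Chemokine receptors were scarce, and the most abundant of them, Cxcr4, was lower in the gavaged libraries. Cxcr4, the receptor of CXCL12 (NM_009911, chromosome 1, 130484776 to 130488876), was at 9.75 CPM in the untreated library, 5.36 after PBS, 6.33 after E. coli and 4.64 after LGG, with log2 ratios to untreated of -0.86 (-1.23 to -0.51), -0.62 (-0.90 to -0.35) and -1.07 (-1.38 to -0.77) for PBS, E. coli and LGG. The untreated library was above the other 3 with no overlap of Poisson intervals, and the LGG ratio was past the size rule. Endothelial markers, a list of 5 genes from another cell type that carries CXCR4, summed to 134, 125, 123 and 107 CPM. Of these, Pecam1, Cdh5 and Tek were below untreated in every gavaged library. Kdr was not lower in PBS or E. coli (22.9, 24.9, 25.2 and 20.1 CPM), nor Lyve1 in PBS (27.4, 27.9, 22.7 and 23.2 CPM). The summed B cell and follicle genes went the other way (25.9, 46.4, 49.8 and 40.6 CPM). The part of any cell type in the Cxcr4 difference was not tested. Ccr7, which guides lymphocytes and dendritic cells to lymph nodes (NM_007719, chromosome 11, 99005513 to 99016391), was at 2.07, 0.998, 1.10 and 1.40 CPM, with a ratio of -1.04 for PBS (-1.95 to -0.24). Ccr1 (2.88 to 3.95 CPM) and Cxcr5, the receptor of CXCL13 on B cells (2.25, 2.49, 3.09 and 3.11 CPM) did not pass the rule in any pair.

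In the IL-1 family, the abundant ligand genes Il1rn and Il18 were higher, and the receptor genes Il1r1 and Il18r1 lower, in every gavaged library than in the untreated one. The family as a whole had no common direction. Ligand genes were counted together with Il18bp, a soluble inhibitor and not a ligand. Against untreated, 4 of these 7 genes were positive in PBS, 3 in E. coli and 5 in LGG, with Il18bp among the positive ones each time. Of 6 receptor genes, 2, 1 and 3 were positive. Il1rn (NM_031167, chromosome 2, 24192380 to 24207011) was at 33.7, 50.8, 55.1 and 49.99 CPM, and Il18, a cytokine made by epithelium and released after cleavage by caspase-1 (NM_008360, chromosome 9, 50373473 to 50389942), at 24.6, 34.9, 38.5 and 33.8 CPM. For Il18 the log2 ratios to untreated were 0.51 (0.34 to 0.67), 0.65 (0.51 to 0.79) and 0.46 (0.32 to 0.60) for PBS, E. coli and LGG. In both genes the untreated library was below the other 3, and the gavaged libraries lay closer to each other than to it.

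Of the 6 receptor genes, 3 were highest in the untreated library. Il1r1, the signalling receptor for IL-1 (NM_001123382, chromosome 1, 40323431 to 40373022), was at 39.4, 24.8, 27.3 and 26.9 CPM. Beside it, 4 fibroblast genes summed to 1907, 1499, 1681 and 1522 CPM, mostly Col3a1 (1156, 913, 1027 and 944 CPM). Col1a1, of the same list, was not lower in E. coli (373, 302, 383 and 297 CPM). Il18r1, the IL-18 binding chain (NM_008365, chromosome 1, 40522851 to 40557699), was at 3.09, 1.87, 1.38 and 1.43 CPM, with ratios of -0.72 for PBS (-1.37 to -0.11), -1.16 for E. coli (-1.74 to -0.61) and -1.10 for LGG (-1.67 to -0.56). Its partner chain Il18rap (NM_010553, chromosome 1, 40572207 to 40608550) was at 1.19, 0.748, 0.963 and 0.546 CPM and was past the rule for LGG (-1.10, -2.08 to -0.23). The decoy Il18bp, a soluble inhibitor of IL-18, was at 2.91, 3.68, 3.23 and 3.76 CPM. The untreated library was thus highest for both IL-18 receptor chains and lowest for Il18 and Il18bp. The other receptor genes of the family, chosen after their values were seen, had other orders: Il1rap was at 10.8, 11.8, 10.8 and 11.5 CPM, and Il1rl2 at 1.82, 1.93, 2.06 and 1.95.

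Il1b was near the limit of the depth. It encodes an inflammasome-processed cytokine (NM_008361, chromosome 2, 129190316 to 129196856) and was at 0.842, 0.561, 0.275 and 0.615 CPM from 23.5, 9, 7.5 and 18 counts, with a ratio of -1.55 in E. coli against untreated (-2.98 to -0.41) that was past the rule. The antisense RNA gene Il1bos overlaps 18.6% of it. Il33, an alarmin of stromal and epithelial cells, was at 4.98, 5.36, 4.68 and 5.05 CPM. Il1rl1, the IL-33 receptor, chosen after its values were seen, was at 7.93, 4.49, 5.02 and 8.33 CPM, so the PBS and E. coli libraries were lower than the untreated and LGG ones, whose ratio was 0.07 (-0.20 to 0.34).

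The common gamma chain group rested on its receptors. Il13ra1 (116, 132, 132 and 134 CPM) and Il4ra (46.8, 40.4, 38.0 and 43.1 CPM), which form the receptor for IL-4 and IL-13 outside lymphocytes, differed little and in opposite directions. Il21r, found on B, T and NK cells (NM_021887, chromosome 7, 132746943 to 132777084), was at 1.82, 3.74, 3.40 and 3.41 CPM, with ratios of 1.03 for PBS (0.48 to 1.6), 0.89 for E. coli (0.40 to 1.41) and 0.90 for LGG (0.41 to 1.42). All 3 gavaged libraries were above the untreated one, and the summed B cell and follicle genes had the same order of untreated against gavaged. Il15, a cytokine presented to intraepithelial lymphocytes and NK cells, was at 11.6, 15.6, 15.2 and 14.7 CPM.

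The abundant receptors of the IL-10 and IL-17 families differed little across the libraries. Il22ra1 spanned 106 to 118 CPM, Il10rb 79.4 to 90.4, Il17rc 125 to 142, Il17re 27.1 to 30.4 and Il17ra 24.1 to 28.1. The IL-11 receptor gene Il11ra1 was at 28.9, 32.2, 32.7 and 35.3 CPM, and Il6ra at 9.02, 8.23, 7.87 and 7.38 CPM. Il22ra2, which encodes the soluble IL-22 binding protein, was at 3.51, 4.86, 6.33 and 6.08 CPM, with ratios of 0.47 for PBS (0.03 to 0.91), 0.85 for E. coli (0.49 to 1.22) and 0.79 for LGG (0.43 to 1.16). Il17d, a cytokine of the IL-17 family made outside the T cell lineage, was at 9.75, 5.74, 6.74 and 7.96 CPM. Among the ungrouped genes, Il34, a ligand of the CSF-1 receptor on macrophages (NM_029646, chromosome 8, 113265729 to 113329824), was at 8.70, 14.2, 17.0 and 13.4 CPM, and Il16 at 6.10, 5.11, 5.91 and 5.40. Il4i1 shares 99.9% of its span with the Nup62-il4i1 readthrough gene on the same strand, so its 3.51, 4.36, 4.44 and 3.52 CPM are uncertain.

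A count over all 3 gavaged libraries summarised these differences. In 12 of the 75 genes (16%) every gavaged library was above the untreated one with an interval excluding 0, against 12.2% of all genes, and in 7 (9.33%) every one was below, against 10.9%. These shares were near the background. The higher genes were Ccl12, Ccl28, Ccl6, Cxcl13, Il10rb, Il13ra1, Il15, Il18, Il1rn, Il21r, Il22ra2 and Il34. The lower genes were Cxcl14, Cxcr4, Il17d, Il18r1, Il1r1, Il4ra and Il6st. Scaled by library totals instead of TMM, the split was 9 higher and 10 lower: Ccl6, Il10rb and Il22ra2 left the higher side and Ccr7, Cxcl12 and Il17rd joined the lower. All 3 ratios share the untreated library, so a deviation of that library alone would give the same count, and gavage cannot be told apart from any other difference of that library.

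**Figure D3:**
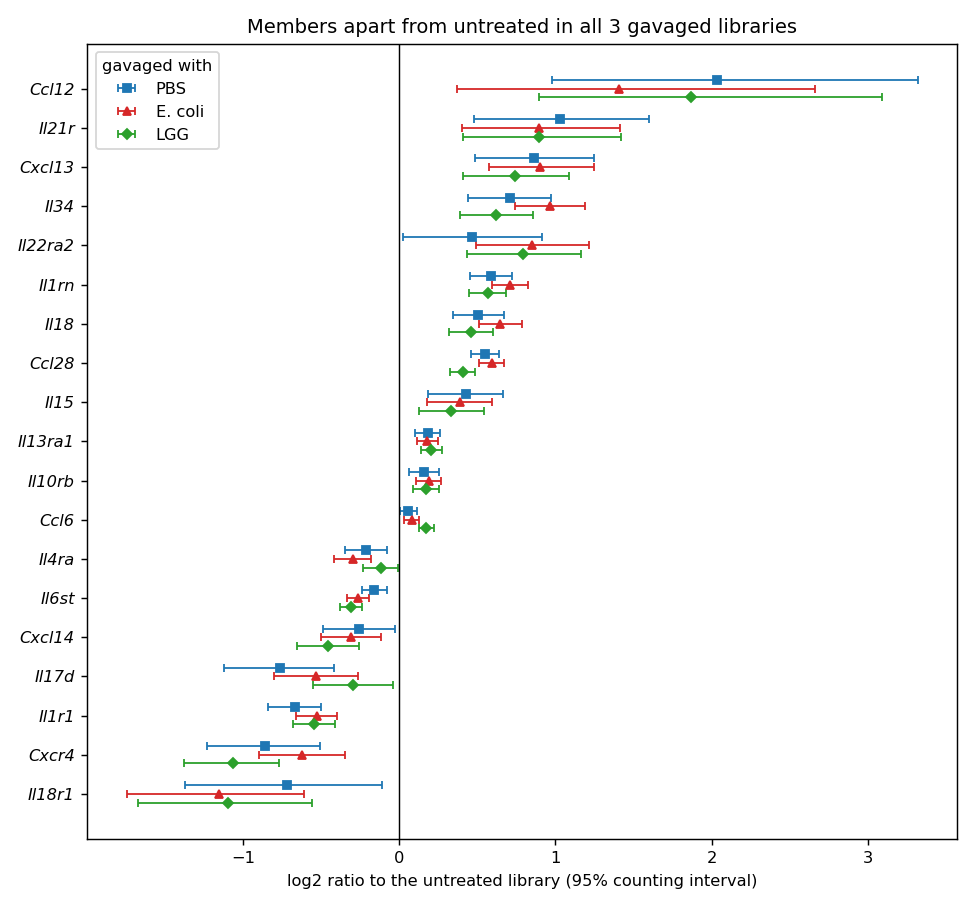
Log2 ratio to the untreated library with its 95% counting interval for the 19 genes above or below untreated in all 3 gavaged libraries (blue square PBS, red triangle E. coli, green diamond LGG). The PBS points lie on the same side as the bacterial ones because the genes were chosen that way. At the ends of the list the PBS ratios are 2.03 for Ccl12 and -0.72 for Il18r1.

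LGG against PBS compares the probiotic with its vehicle. None of the 75 genes was higher past the size rule, against 0.268% of all genes, and 1 was lower (1.33%), against 0.196%. The lower gene was Cxcr6, a receptor of tissue-resident T and NK cells (NM_030712, chromosome 9, 123715595 to 123720872), at 1.02 CPM in the untreated library, 1.87 after PBS, 1.44 after E. coli and 0.785 after LGG. Its log2 ratio was -1.23 (-2.10 to -0.42), and it lies within Fyco1 on the opposite strand (50.1 to 57.7 CPM). The median of the 75 genes was -0.0465, with 33 positive, beside -0.0046 for all genes. Low counts widen intervals and this set was less abundant than the rest, so shares at any size are not compared like for like. At any size, the interval lay above 0 in 5 genes (6.67%), against 13.4% of all genes, and below 0 in 6 (8.0%), against 12.8%. The larger of these ratios, singled out after their values were seen, were 0.89 for Il1rl1 (0.51 to 1.29) and -0.81 for Il7r, the IL-7 receptor of lymphocytes (-1.38 to -0.25). Il7r was at 3.30, 3.37, 2.68 and 1.91 CPM.

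E. coli against PBS uses the same PBS library. None of the genes was higher past the rule, against 0.216% of all genes, and Cxcl9 was lower (1.33%), against 0.366%. The ratio of Cxcl9 was -1.30 (-2.68 to -0.07) from 10 counts after E. coli and 14.5 after PBS. The median of the set was 0.0295, with 42 positive, beside -0.0001 for all genes. At any size, and with the same limit of low counts, 3 intervals lay above 0 (4.0%, against 9.17% of all genes) and 3 below (4.0%, against 8.84%). Ccl7 (-0.76) and Il6st (-0.11) were on the lower side with Cxcl9, and Il17rb (0.58), Il34 (0.26) and Cxcl12 (0.14) on the higher, of which Il17rb, the IL-25 receptor chain, was chosen after its values were seen.

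LGG against E. coli leaves the PBS library out. Il1f8, which encodes IL-36 beta, an IL-1 family cytokine of epithelia (NM_027163, chromosome 2, 24008692 to 24015623), was higher in the LGG library, at 0.491, 0.436, 0.310 and 0.820 CPM over the untreated, PBS, E. coli and LGG libraries and a log2 ratio of 1.35 (0.25 to 2.69). That is 1 of 75 genes, against 0.432% of all genes, and none was lower, against 0.203%. It rests on 24 counts against 9. At any size, and with the same limit of low counts, intervals lay above 0 in 6 genes (8.0%, against 15.8% of all genes) and below 0 in 8 (10.7%, against 15.4%). Il1rl1 (0.73, 0.43 to 1.04), Ccl9 (0.34), Il17rc (0.10) and Ccl6 (0.09) had intervals above 0 both here and against PBS, and Il4ra (0.18) and Il1f8 here. Below 0 were Il9r, the IL-9 receptor (-0.87, -1.67 to -0.14), Cxcr6 (-0.86, -1.68 to -0.11), Il17rb (-0.45), Cxcr4 (-0.44), Il34 (-0.34), Ccl28 (-0.19), Il18 (-0.19) and Il1rn (-0.14). Il9r was at 0.877, 0.998, 1.51 and 0.820 CPM and was chosen after its values were seen.

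**Figure D4:**
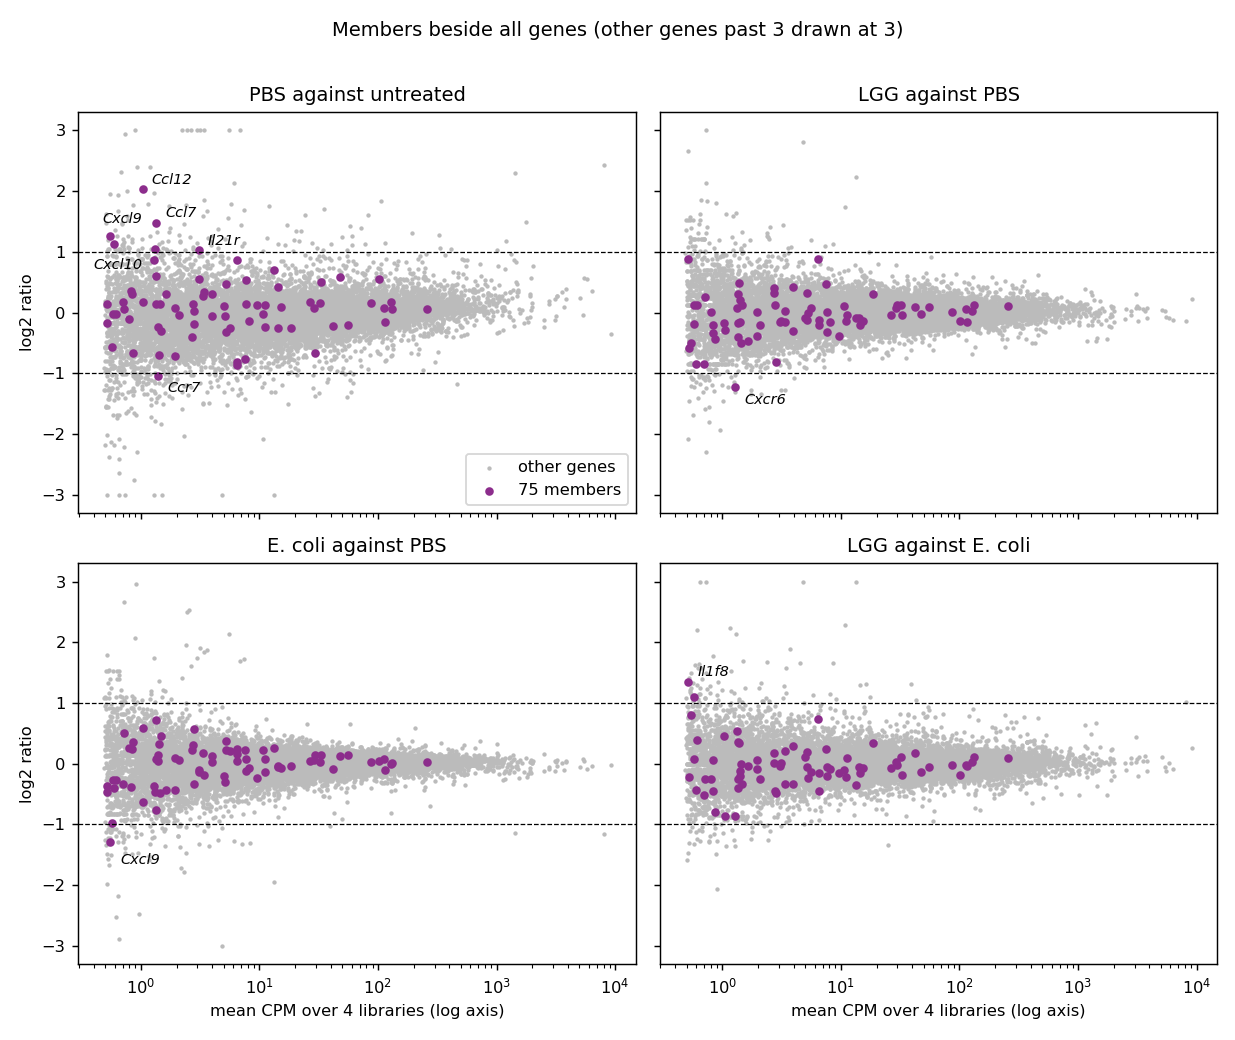
Log2 ratio against mean CPM over the 4 libraries (log axis) in 4 pairs of libraries, with the 75 genes in purple and all others in grey, and dashed lines at 2-fold. Purple points outside the lines are named where the interval also excludes 0: 6 in PBS against untreated, and 1 each in the other 3 pairs (Cxcr6, Cxcl9 and Il1f8), all at the low-abundance end.

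Against the untreated library, LGG had 3 genes higher past the rule (Ccl12, Ccl7 and Cxcl10), against 0.569% of all genes, and 3 lower (Cxcr4, Il18r1 and Il18rap), against 1.0%. E. coli had 1 higher (Ccl12), against 1.0%, and 2 lower (Il18r1 and Il1b), against 1.99%. With both bacteria set against both libraries without bacteria, none of the 75 genes was higher in all 4 pairs with intervals excluding 0, against 1.7% of all genes, and 1 was lower, against 1.33%. That gene was Il6st (NM_010560, chromosome 13, 113254278 to 113297068), at 131 CPM in the untreated library, 117 after PBS, 109 after E. coli and 105 after LGG. Its ratio to PBS was -0.11 for E. coli and -0.15 for LGG, so the difference was small, and the untreated library stood above the PBS library by a similar size (-0.16 in PBS against untreated).

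A list of related genes that are not in the set was read beside it: JAK-STAT genes (16 measured), IL-1 and IL-17 signalling (13), inflammasome processing (4), other chemokines and chemokine receptors (9) and other cytokines and receptors (11). None of these 53 genes was past the 2-fold size rule, in either direction, in any of the 6 pairs, where 0.196% to 1.99% of all genes were in each direction. Smaller differences were present in the list. Its median log2 ratio was -0.0358 in PBS against untreated, 0.0003 in LGG against PBS and 0.0166 in E. coli against PBS. Stat3, the factor downstream of IL-6, IL-10 and IL-22 receptors, was at 146, 164, 160 and 145 CPM, and Socs3, its feedback inhibitor, at 12.2, 9.23, 8.73 and 9.19 CPM. The ratio of Socs3 to untreated was -0.40 for PBS (-0.69 to -0.12), -0.48 for E. coli (-0.72 to -0.25) and -0.41 for LGG (-0.65 to -0.18). Cx3cr1, the fractalkine receptor of macrophages, had a ratio of -0.61 in LGG against PBS (-0.95 to -0.28) and was chosen after its values were seen. Of the inflammasome processing list, Casp1 was at 129, 142, 142 and 146 CPM and the epithelial sensor Nlrp6 at 180, 204, 217 and 212 CPM. The rest of that list did not share this order. Casp4 was below untreated in every gavaged library, with intervals excluding 0. Its ratios were -0.34 for PBS, -0.30 for E. coli and -0.18 for LGG. Pycard was at 104, 99.5, 101 and 115 CPM. Nlrp3, under the threshold of 0.5 CPM, was at 0.491, 0.374, 0.413 and 0.307 CPM.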

How the data were processed

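RNA sequencing of 4 colon libraries, 1 per condition, was used. Per the labels' protocols, RNA was extracted with TRIzol, cleaned on columns with DNase, and sequenced from Illumina TruSeq RNA v2 libraries. TopHat2, HOMER and the mouse build mm9 are named by the submitters' processing notes. Not given in the sources used here are tool versions, the use of strand and the origin of the steps of 0.5 in the counts. Expected counts were deposited by the authors in 1 table, with RefSeq accessions, lengths and mm9 coordinates, in which 4181 of 24016 genes are 0 in every library.

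Counts were rounded to whole numbers and scaled with TMM factors (1.05, 0.985, 0.990 and 0.979 for untreated, PBS, E. coli and LGG) from edgeR 4.0.16 in R 4.3.3. CPM, RPKM and log2 ratios (0.5 counts added, in proportion to library size) were computed in Python 3.11.15 (numpy 2.4.6, pandas 2.3.3, scipy 1.17.1, matplotlib 3.10.9). The membership threshold of 0.5 CPM used library totals. Ratio intervals are exact conditional binomial (Clopper-Pearson) at 95%, and those of levels exact Poisson. Without molecular identifiers, PCR reads are not separate molecules: intervals, and the floor of 3 counts used for a 0, cover counting error alone. Conditions were not tested against each other, since each has 1 library. The size rule was tested on simulated data.

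The genes of the set and the lists were chosen with earlier results of these data known. Named genes were those past the size rule in any pair, the 3 highest by RPKM in each family group, those ordered alike in both bacterial libraries, the 3 nearest the threshold on each side, and Il6, Il10, Il17a, Il22, Il23a, Il1b, Il18, Il33, Cxcl1, Cxcl2, Ccl20 and Ccl28. The genes in the count over all 3 gavaged libraries, a count added after seeing the data, are named too. Summed CPM of marker lists not given in the report ran from 11.1 to 14.3 for dendritic cells, 96.4 to 142 for mast cells and eosinophils (mostly Kit), 2813 to 3564 for mesothelium (mostly Krt19, which epithelium also expresses), 33.7 to 93.9 for adipocytes and 6699 to 8022 for smooth muscle. In the mast cell and eosinophil list, Mcpt1 and Alox15 were lower past the rule in E. coli against untreated. So were Mcpt1 in LGG against untreated and Alox15 in E. coli against PBS. Alternatives were library totals, DESeq2 1.42.0 and upper-quartile scaling, unrounded counts, no filter, a mean CPM of 1 or more, or of 5 or more, a prior of 5 counts and a 1.5-fold threshold.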

Additional observations from a re-analysis of the deposited data

How the results depend on the processing

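No paired analysis was possible because each group has 1 library, and for the same reason no library could be left out. Of 182 alternative values of counts and medians of the set, 154 stayed within 1.5 times the value given or within counting error, and 28 moved. Shares of all genes past the rule are not given for these settings. The counts below show how calls moved and have no background beside them. With a 1.5-fold threshold the genes past the rule were 9 higher and 6 lower in PBS against untreated, 2 and 2 in LGG against E. coli, 1 and 2 in LGG against PBS, 2 lower in E. coli against PBS, 7 higher in LGG against untreated, and 10 and 5 in E. coli against untreated. With a mean CPM of at least 1, 0 were lower in E. coli against PBS, 0 higher in LGG against E. coli and 1 lower in E. coli against untreated. With a mean CPM of at least 5, only 1 gene in all was left past the rule, lower in LGG against untreated (Cxcr4), and the counts were 0 in the others: PBS against untreated in both directions, E. coli against untreated in both, LGG against untreated higher, LGG or E. coli against PBS lower, and LGG higher against E. coli. Fewer genes are tested under these filters. With a prior of 5 counts, 2 were higher and 0 lower in PBS against untreated, 0 lower in E. coli against PBS and 1 higher in LGG against untreated. Without a filter, 2 were lower in LGG against PBS. With library totals, 2 were higher in PBS against untreated, where Cxcl10 (0.96) and Il21r (0.94) fell short of 2-fold and the interval of Cxcl9 (1.18) included 0. The median of all genes was then -0.0906 in PBS, -0.1051 in LGG and -0.0822 in E. coli against untreated. The set then had medians of 0.0071 in PBS, -0.0248 in LGG and -0.0028 in E. coli against untreated, and Ccl6 was at -0.03 (PBS) and -0.0016 (E. coli). DESeq2 and upper-quartile scaling moved none of the counts past the size rule by over 1.5 times. Differences among genes under about 1 CPM are limited by depth.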

Other observations

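Receptors that bind chemokines without signalling to G proteins were not in the set chosen by symbol. Ackr1, which carries chemokines across the endothelium of small veins, was at 3.51 CPM in the untreated library, 2.00 after PBS, 1.99 after E. coli and 1.91 after LGG, with a log2 ratio of -0.81 in PBS against untreated (-1.44 to -0.23). Ackr3, a scavenger of CXCL12, had a ratio of -0.38 in the same pair (-0.58 to -0.18). Ackr1 and Ackr3 were picked with their values in view. The intervals of Ackr2 (0.70, -0.15 to 1.57) and Ackr4 (-0.12, -0.33 to 0.10) included 0 in that pair. None of these genes passed the size rule. Cx3cl1, a membrane-bound chemokine, was at 103, 106, 120 and 102 CPM.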
